A study of Mus musculus with 4 samples.

Results

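Histone H4 acetylated at lysine 16 (H4K16ac) was mapped by ChIP-seq, and its islands were examined at the genes of 10 core pluripotency transcription factors, Pou5f1, Nanog, Sox2, Klf4, Klf2, Zfp42, Tbx3, Sall4, Prdm14 and Esrrb. Each locus was set as a position in the mouse genome (build mm9), and every called island with a base within 50 kb of it was taken; Esrrb, a long gene, was taken as a span of 170 kb. By this rule the 10 loci held 55 of the 40570 islands called in embryonic stem cells (ESC) and 41 of the 48278 islands called in neural progenitor cells (NPC). Positions are known to the nearest 1 to 10 kb only, and transcription start sites of mm9 were not used here.

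Both cell types came from 46c, a mouse ES cell line in which GFP reports the Sox1 gene, and the comparison describes the mark before and after neural differentiation. ESC were undifferentiated, and NPC were collected by GFP sorting after 5 days in medium with the supplements NB27 and Neuro2. Chromatin was cut with micrococcal nuclease (MNase) and precipitated with 1 lot of a Millipore antibody, so that each cell type gave 1 ChIP library and 1 input. All cells derive from 1 line, the NPC are those with Sox1-GFP, and no transcripts were measured in these files, so the cell types could not be checked against marker expression here.

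H4K16ac neutralises a positive charge on the tail of histone H4, is laid down mainly by the acetyltransferase MOF (Kat8), and is found at active genes and enhancers. The factors studied here form the network that holds ES cells in the pluripotent state. OCT4 (the protein of Pou5f1), SOX2 and NANOG bind together at their own genes and at one another's, and most members are switched off as cells become neural; Sox2 is known as an exception, since neural progenitors also express it.

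An island is a run of neighbouring windows with more reads than the background, as called by the authors, and its value is the count of H4K16ac reads in it. The ESC list held 17935144 reads and the NPC list 24386370 reads in islands, and reads per 1000000 of these are written RPM. The least reads in any island were 60 in ESC and 43 in NPC. Reads outside islands were not analysed here, so a stretch without an island may still carry the mark. With 1 library per cell type no difference had a replicate check and no test between cell types was possible; intervals are exact (Clopper-Pearson, 95%) and cover counting error only. Since reads carried no molecular identifiers, they are not independent molecules.

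The promoters of 4 of the genes are shown: those of the central factors Pou5f1, Nanog and Sox2, and that of Zfp42, which had the lowest ratio of NPC to ESC reads. They are the 250 bases before the start in RefSeq, on build GRCm38.p6, at chr17:35505782-35506031 on the plus strand for Pou5f1, chr6:122707239-122707488 on the plus strand for Nanog, chr3:34649745-34649994 on the plus strand for Sox2 and chr8:43307010-43307259 on the minus strand for Zfp42. These coordinates belong to that build and cannot be set against the mm9 islands. Capitals mark matches, on either strand, to 5 motifs: the OCT-SOX composite (TTTGCAT and ACAATG with any 1 base between them), the octamer ATTTGCAT, the ESRRB element TCAAGGTCA, the GC box GGGCGG and the TATA box TATAAA. The first 2 motifs share letters, and matches to 1 motif may overlap each other.
Pou5f1: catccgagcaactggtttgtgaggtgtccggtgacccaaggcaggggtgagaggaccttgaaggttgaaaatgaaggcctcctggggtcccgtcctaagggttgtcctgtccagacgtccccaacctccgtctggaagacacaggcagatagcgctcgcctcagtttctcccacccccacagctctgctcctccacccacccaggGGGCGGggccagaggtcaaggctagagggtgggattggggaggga
Nanog: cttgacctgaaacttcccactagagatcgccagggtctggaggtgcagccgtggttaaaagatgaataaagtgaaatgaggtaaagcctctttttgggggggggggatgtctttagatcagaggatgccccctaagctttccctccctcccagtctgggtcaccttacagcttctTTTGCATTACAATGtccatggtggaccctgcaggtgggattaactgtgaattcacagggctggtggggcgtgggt
Sox2: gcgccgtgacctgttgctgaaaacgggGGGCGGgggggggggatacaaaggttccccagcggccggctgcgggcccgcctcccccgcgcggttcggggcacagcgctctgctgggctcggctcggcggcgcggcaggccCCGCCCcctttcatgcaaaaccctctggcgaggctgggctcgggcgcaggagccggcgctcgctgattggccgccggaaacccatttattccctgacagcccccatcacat
Zfp42: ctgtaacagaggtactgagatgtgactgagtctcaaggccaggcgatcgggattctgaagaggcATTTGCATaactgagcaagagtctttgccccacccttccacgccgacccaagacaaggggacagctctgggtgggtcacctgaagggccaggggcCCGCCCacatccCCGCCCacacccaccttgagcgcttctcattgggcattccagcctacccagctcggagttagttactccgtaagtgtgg

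Promoter sequences were matched for 7 of the 10 genes, and Tbx3, Sall4 and Prdm14 had none in the set searched. The composite of an octamer-like and a SOX site was found in the Nanog promoter and in no other of the 27025 promoters searched (0.00370% held it). The octamer was found in Zfp42 alone of the 7, against 1.62% of all promoters. GC boxes were found in 5 of the 7 (Pou5f1, Sox2, Klf4, Klf2 and Zfp42), against 33.0% of all promoters, and the ESRRB element and the TATA box in 0 of them, against 0.366% and 13.0%. A match is a run of letters and not a measured binding site. Only full matches were counted, so the shares do not tell how common looser forms of a motif are. The motifs were chosen with earlier results known, so the Nanog match is a description and not a test. CpG dinucleotides numbered 32 in Klf4, 29 in Klf2 and 27 in Sox2, but 9 in Zfp42, 8 in Pou5f1, 6 in Esrrb and 3 in Nanog, beside a median of 6 over all promoters.

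All 10 loci held islands in ESC, and 9 of the 10 held them in NPC, Tbx3 being the one without. For scale, 61.3% of all 100 kb windows of the genome laid end to end held an ESC island and 53.3% held an NPC island (61.6% and 55.1% on the chromosomes of the 9 loci given as positions); such windows include gene-poor sequence, and a background of genes was not used here. At 7 loci an ESC island overlapped an NPC island by at least 1 base (29.2% of windows). At 2 loci, Sall4 and Prdm14, both lists had islands but none overlapped (12.9% of windows), and at Tbx3 islands were called in ESC only (19.2% of windows). No locus had islands in NPC only, against 11.2% of windows. By island, 19 of the 55 in ESC (34.5%) overlapped an NPC island, near the 39.8% of the whole ESC list. Of the 41 in NPC, 20 (48.8%) overlapped an ESC island, against 34.7% of the whole NPC list, and 10 of these 20 lay at Klf2.

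**Figure D1:**
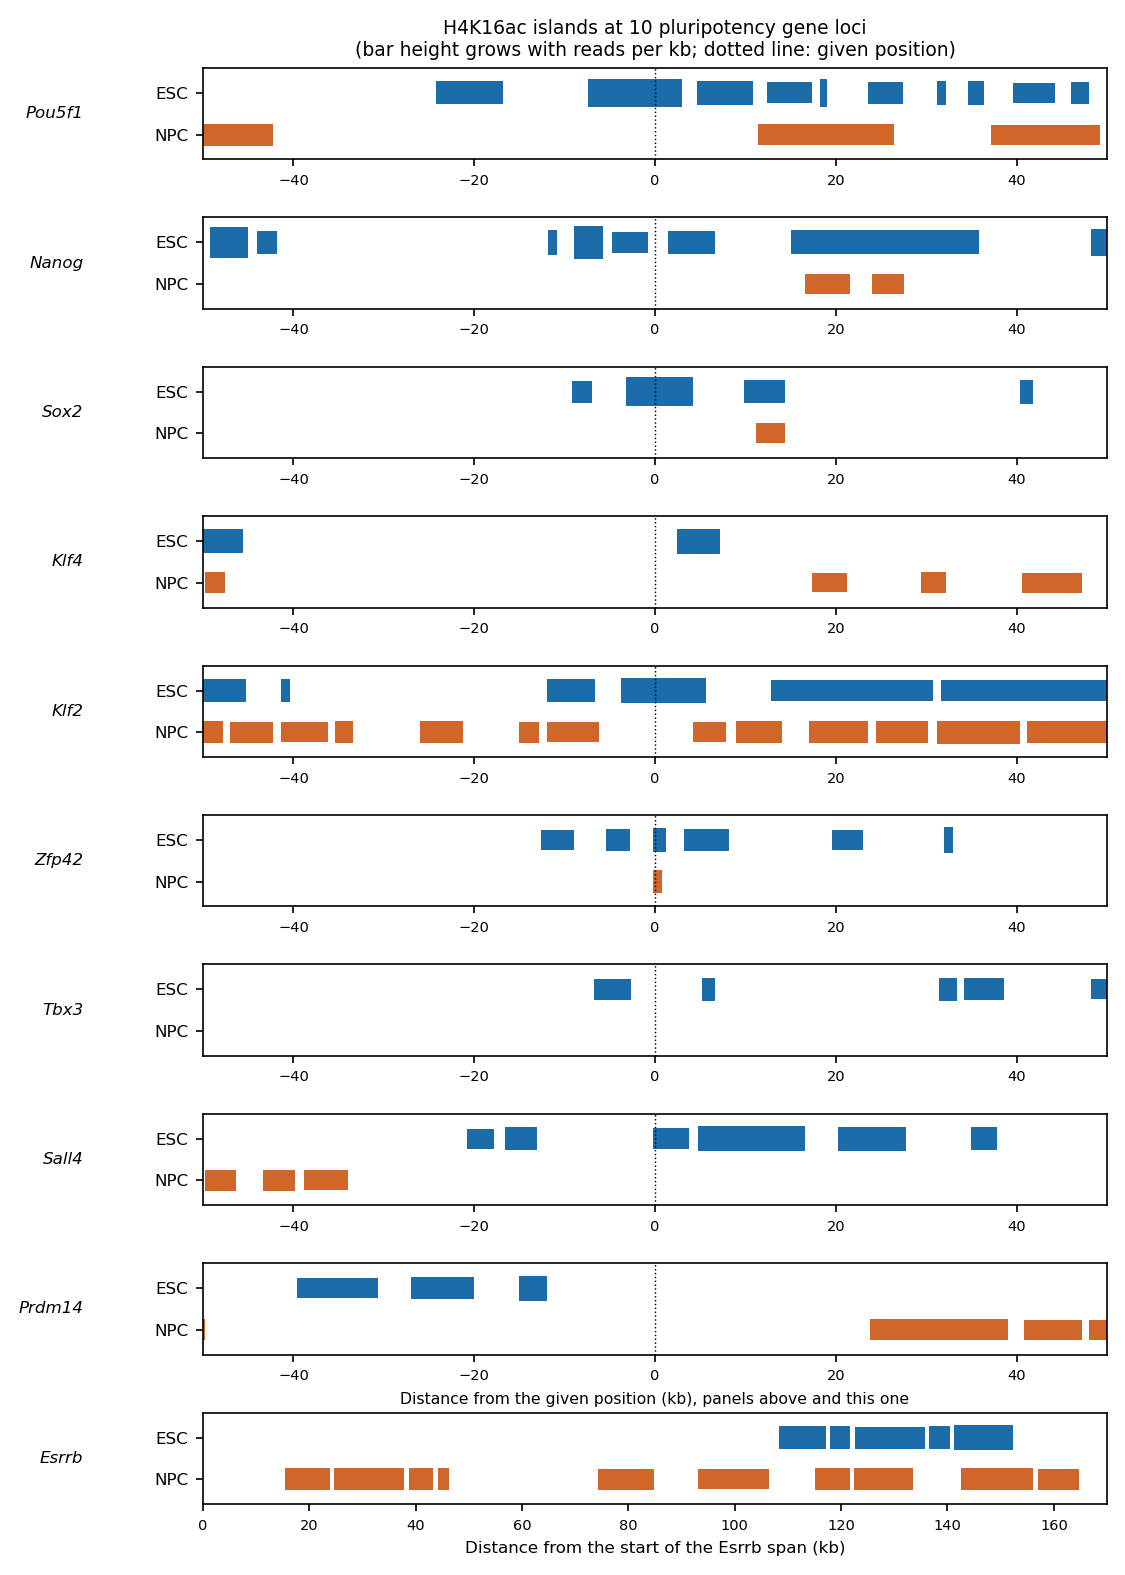
Islands at the 10 loci, with distance from the given position (from the start of the span for Esrrb) in kb on the x axis, ESC in the upper and NPC in the lower row of each panel, and bar height growing with reads per kb. Islands are cut at the window edge. Of the 9 loci given as positions, 8 (all but Prdm14) have an ESC island within 5 kb of the position and 2 have an NPC island as near. At Esrrb the ESC islands begin 108 kb along the span and the NPC islands at 15.4 kb.

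The cell types differed most close to the given positions, whose distance to the start sites of the genes is not known here. Within 5 kb of the position lay an ESC island at 8 of the 9 loci given as positions, the exception being Prdm14, and an NPC island at 2 of the 9, Klf2 and Zfp42. Of window centres over the genome, 19.2% had an ESC island and 23.3% an NPC island within 5 kb. Among the 5058 centres that had an ESC island within 5 kb, 51.0% also had an NPC island as near. The position itself lay in an ESC island at 5 loci (Pou5f1, Sox2, Klf2, Zfp42 and Sall4; 7.39% of centres) and in an NPC island at Zfp42 alone (11.7% of centres). The limit of 5 kb was chosen after seeing the data. With 2 kb the counts were 6 for ESC and 1 for NPC, and no share of window centres was computed for that limit.

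Cover by islands was highest next to the position in ESC and lowest there in NPC. From 0 to 5 kb on both sides, islands covered on average 52.0% of the bases in ESC and 2.0% in NPC over the 9 loci. Cover from 5 to 10 kb was 37.3% and 8.45%, and all of the NPC cover in that class came from Klf2. From 10 to 25 kb it was 28.5% and 17.4%. Beyond 25 kb the order turned, with 20.5% in ESC and 24.0% in NPC up to 50 kb, and 14.8% and 22.4% up to 100 kb.

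The same measure was taken around the 5058 window centres with an ESC island within 5 kb. There islands covered 38.0% of the bases from 0 to 5 kb in ESC and 28.0% in NPC. At 25 to 50 kb the 2 values were 19.1% and 24.9%, close to those of the loci. Without Pou5f1, Nanog and Sox2 the innermost class held 39.0% in ESC and 3.0% in NPC, and without Klf2 47.5% and 1.25%. The distance classes were chosen after seeing the data.

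**Figure D2:**
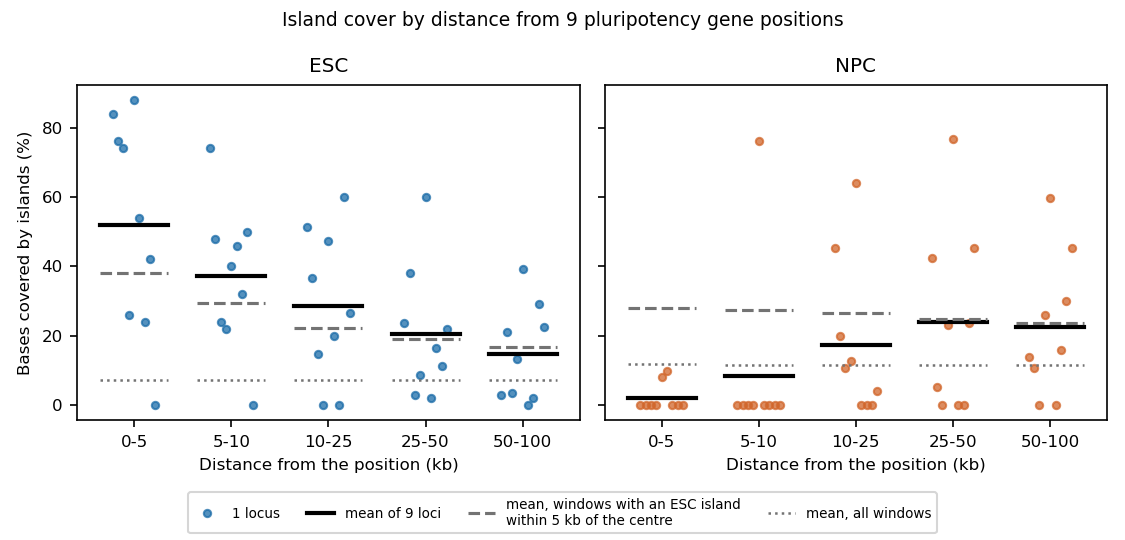
Percent of bases covered by islands (y axis) in 5 classes of distance from the position in kb (x axis), for ESC (left) and NPC (right). Points are the 9 loci given as positions, black lines their means, and grey lines the means over window centres with an ESC island within 5 kb (dashed) and over all window centres (dotted); from 0 to 5 kb the mean of the loci is 52.0% in ESC and 2.0% in NPC.

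Pou5f1, Sox2 and Nanog encode the central factors of the network. At Pou5f1, 10 ESC islands held 4699 reads (262 RPM, 255 to 270) and 3 NPC islands 3495 reads (143 RPM, 139 to 148). The island over the position, chr17:35637601-35648000, was 10.4 kb wide with 1567 ESC reads at 151 reads per kb, denser than 87.1% of the ESC list. No NPC island was called between 42.2 kb before and 11.4 kb after the position. The NPC islands lay on either flank, 15 kb and 12 kb wide on the side of the neighbouring genes Tcf19 and Cchcr1 and 17.8 kb wide on the side of H2-Q10. In those Tcf19-side stretches the mark was called in both cell types, with log2 NPC over ESC of 0.00 (-0.13 to 0.13) and 0.11 (-0.05 to 0.28), both with intervals that hold 0 at this scaling. ESC islands there summed to 9.6 and 6.6 kb, less than in NPC. By reads per kb, scaled to island reads, the log2 was -0.64 and -0.75. The 5 ESC islands without an NPC counterpart were the 3 between 24.2 kb before and 10.8 kb after the position and 2 narrow ones, of 1 and 1.8 kb, further along.

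At Nanog, 8 ESC islands held 7240 reads (404 RPM, 394 to 413), the most of any locus. That rank rests on counting reads beyond the window edge. The 2 NPC islands held 589 reads (24.2 RPM, 22.2 to 26.2). RPM were 16.7 times as many in ESC, a log2 of -4.06 (-4.19 to -3.94), and with reads cut at the window edge the log2 was -3.59. The island nearest the position ended 0.8 kb before it, at chr6:122655201-122659200, with 328 ESC reads at 82 reads per kb. A narrower neighbour at chr6:122651001-122654200, singled out after its values were seen, was the densest of all 55 ESC islands at the loci. It held 710 reads at 222 reads per kb, denser than 99.4% of the ESC list. Among protein-coding genes in RefSeq, Nanog lies between Dppa3, a gene of early embryo and germ cells, and Slc2a3, a glucose transporter gene. Toward Slc2a3 an ESC island of 20.8 kb with 2266 reads held both NPC islands, of 5 and 3.6 kb, with 343 and 246 reads. The ESC island with the most reads of the locus lay further along the same side and crossed the window edge, at chr6:122708201-122723200, with 2294 reads in 15 kb and no NPC counterpart.

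At Sox2, the 4 ESC islands held 2063 reads (115 RPM, 110 to 120) and the 1 NPC island 204 reads (8.37 RPM, 7.26 to 9.60). The log2 was -3.78 (-4.00 to -3.57), 13.8 times as many RPM in ESC. An ESC island of 7.4 kb covered the position, chr3:34546801-34554200, with 1250 reads at 169 reads per kb, denser than 93.1% of the list. The NPC island, chr3:34561201-34564400, began 11.2 kb after the position and lay inside a second ESC island; it held 63.8 reads per kb, denser than 10.7% of NPC islands. No other NPC island lay within 100 kb of the Sox2 position on either side.

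Klf4 and Klf2 are Krüppel-like zinc finger factors that can replace one another in part in ES cells, and their loci differed. Klf4 had 2 ESC islands with 1919 reads (107 RPM, 102 to 112) and 4 NPC islands with 1057 reads (43.3 RPM, 40.8 to 46.0), a log2 of -1.30 (-1.41 to -1.19). Beside the position, 2.4 kb away, lay an ESC island of 4.8 kb with 588 reads, chr4:55542401-55547200, and the nearest NPC island was 17.4 kb away. The larger ESC island, of 11.6 kb and 1331 reads, crossed the window edge, and with reads cut there the log2 was -0.49. Islands covered fewer bases in ESC (9.20 kb) than in NPC (15.4 kb).

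At Klf2 the mark was called over much of the window in both cell types. The 6 ESC islands held 5806 reads (324 RPM, 315 to 332) and the 13 NPC islands 5888 reads (241 RPM, 235 to 248), over 57.0 kb and 66.0 kb of the window. The log2 of -0.42 (-0.48 to -0.37) was 0.020 without scaling to island reads and -0.01 when scaled by reads in regions called in both lists, so its direction rests on the scaling. Around the position the cell types were unlike: the ESC island chr8:74840201-74849600 held 1140 reads in 9.4 kb, and the NPC island that overlapped its end held 249 reads in 3.6 kb. For that region the log2 was -2.64 (-2.84 to -2.44). On the side of Eps15l1, a gene of endocytosis, both lists had long islands, with log2 of -0.49 and -0.28.

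Zfp42 (REX1), a zinc finger gene used as a marker of naive ES cells, had 6 ESC islands with 1471 reads (82.0 RPM, 77.9 to 86.3) and 1 NPC island with 99 reads (4.06 RPM, 3.30 to 4.94). Here the cell types shared the island at the position. It spanned chr8:44384801-44386200 with 148 reads in ESC and chr8:44384801-44385800 with 99 reads in NPC, starting at the same base. Its log2 was -1.02 (-1.41 to -0.65), against -4.34 (-4.65 to -4.04) for the locus, since the 5 other ESC islands, of 1 to 5 kb, had no NPC counterpart. At 99 reads per kb the NPC island was denser than 92.3% of its list, but it is only 1 kb wide. It stood at percentile 2.5 of the list by reads and 2.7 by width. A minimum of 100 reads per island removes it and leaves Zfp42 with ESC islands only.

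Tbx3, Sall4 and Prdm14, further members of the network, had no overlap between the lists within 50 kb. Tbx3, a T-box factor of ES cells and later of limb and heart, had 5 ESC islands with 1318 reads (73.5 RPM, 69.6 to 77.6), 63.2 to 106 reads per kb, and 0 NPC islands; the nearest NPC island began 63.4 kb away. With a window of 100 kb on either side, which takes in NPC islands on the side of Tbx5, the log2 at Tbx3 was -0.74 (-0.86 to -0.62).

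Sall4, a zinc finger partner of OCT4, had 6 ESC islands with 3522 reads (196 RPM, 190 to 203) and 3 NPC islands with 842 reads (34.5 RPM, 32.2 to 36.9), a log2 of -2.51 (-2.62 to -2.40). An ESC island of 4 kb covered the position, and the one next to it, chr2:168584801-168596600, held the most reads of the locus, 1522 in 11.8 kb. The NPC islands lay 34 to 49.8 kb away on the side of Atp9a, a gene of membrane lipid transport, and no ESC island was called in that stretch.

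Prdm14, a PR domain repressor of ES cells and primordial germ cells, was alone in having no island of either list within 10 kb of its position. Its 3 ESC islands held 1570 reads (87.5 RPM, 83.3 to 92.0) between 39.6 and 12 kb before the position. Its 4 NPC islands held 2194 reads (89.97 RPM, 86.2 to 93.8), and 3 of them began 23.8 kb or more after it, toward Ncoa2, a nuclear receptor coactivator gene. The other NPC island, with 317 reads, lay on the side of the ESC islands at the window edge. The log2 was 0.04 (-0.05 to 0.13), but its direction depended on the processing: it was -0.23 (-0.32 to -0.13) with reads cut at the window edge, -0.57 by reads per kb, and 0.45 (0.36 to 0.55) scaled by reads in regions called in both lists.

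Esrrb, an orphan nuclear receptor gene, was the one locus where NPC had more RPM with an interval above 0. Over its span 5 ESC islands held 4171 reads (233 RPM, 226 to 240) and 10 NPC islands 7335 reads (301 RPM, 294 to 308), a log2 of 0.37 (0.32 to 0.43). NPC islands covered 91 kb of the span and ESC islands 40.6 kb. Among the 15528 spans of 170 kb over the genome, these lay above 94.9% and 90.4%. All ESC islands lay in a block from 108 to 152 kb along the span. RefSeq places the gene on the plus strand, so the block is toward the 3′ side if the span follows the gene. Gene ends and inner start sites of mm9 were not used here. NPC islands began at 15.4 kb. The span was also cut into 3 equal parts of 56.7 kb. Islands covered 28 kb in NPC and 0 kb in ESC in the first part. They covered 24 kb and 4.93 kb in the middle part, and 39 kb and 35.7 kb in the last part.

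Within the block that both cell types had at Esrrb, ESC held more. Its 3 regions called in both lists had log2 of -1.74 (-1.88 to -1.59), -0.69 (-0.82 to -0.57) and -0.64 (-0.76 to -0.53). By reads per kb, scaled to island reads, the whole span had a log2 of -0.79, the reverse of its RPM. More islands, not denser ones, made up the NPC total. Widening the span by 50 kb on either side gave a log2 of 0.77.

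Over the 9 loci with islands in both lists, 7 had log2 NPC over ESC below 0, against 55.1% of the 11118 windows with islands of both lists. At all 7 the whole interval lay below 0, which was not computed for windows. Without scaling 6 loci were below 0, and no share of windows was computed for that setting. The median was -1.30, beside -0.17 over those windows. Among windows with an ESC island within 5 kb of the centre, those with islands of both lists had a median of -0.42. Esrrb, 1 of the 9, is a span of 170 kb set against windows of 100 kb. Zfp42, Nanog and Sox2 had the lowest values, under which lay 0.45%, 0.79% and 1.25% of the 11118 windows. Other loci were less unusual among windows. For Sall4, Klf4, Pou5f1, Klf2 and Prdm14 these shares were 6.41%, 20.5%, 29.9%, 42.1% and 56.2%. In order of log2 the loci were Zfp42, Nanog, Sox2, Sall4, Klf4, Pou5f1, Klf2, Prdm14 and Esrrb. The intervals of Zfp42 and Nanog overlapped, as did those of Nanog and Sox2, so the order of these neighbours is not resolved at this depth. Klf4 and Pou5f1 changed places with the window: the log2 was -1.85 and -2.20 with 25 kb on either side, -0.16 and -0.85 with 100 kb, and -0.49 and -1.29 with reads cut at the window edge. With that cut Nanog, at -3.59, also came after Sox2, at -3.78. Scaling by reads in regions called in both lists moved every log2 up by 0.41. The window also moved values: at Nanog the log2 was -3.18 with 25 kb on either side and -3.41 with 100 kb, at Klf2 it was -1.07 with 10 kb, and at Sall4 it was -1.02 with 100 kb.

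**Figure D3:**
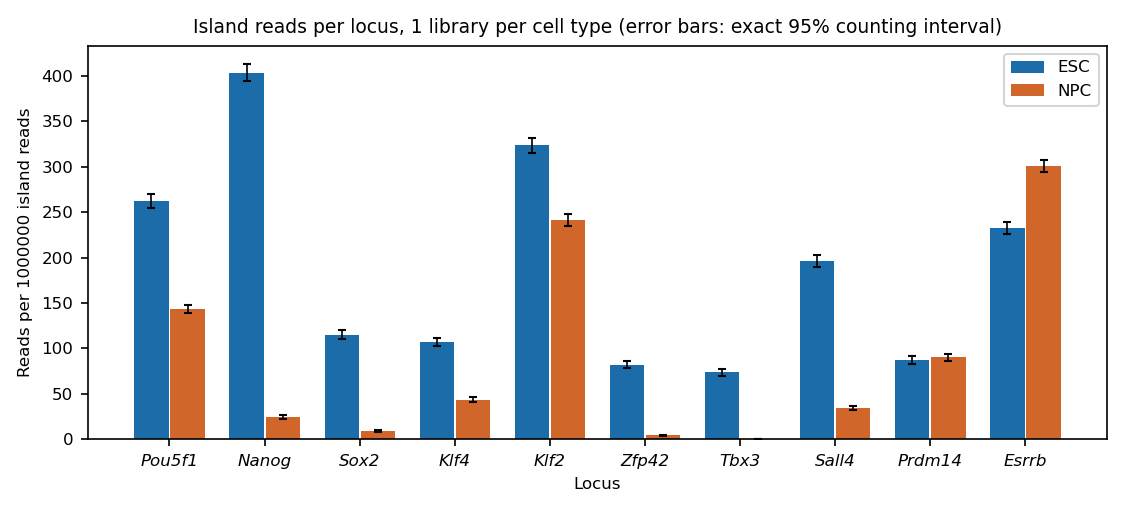
Island reads per 1000000 island reads of the list (y axis) at each locus (x axis), ESC in blue and NPC in orange, with exact 95% counting intervals as error bars and 1 library per cell type. ESC bars are taller at 8 loci, by the most at Nanog (404 against 24.2); Prdm14 is nearly level and Esrrb is higher in NPC (301 against 233).

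Differences in reads had a part from called width and a part from reads per kb. Over all loci together the log2 of summed widths was -0.21 and that of reads per kb, scaled to island reads, -0.87. Summed island width was greater in ESC at 6 of the 10 loci (Nanog, Sox2, Klf4, Zfp42, Tbx3 and Sall4). Bases covered within the window were more in ESC at 6 as well, with Pou5f1 in place of Klf4. Both counts depended on the window. With 10, 25 and 100 kb on either side, bases covered were more in ESC at 8, 8 and 4 loci. Summed width was greater in ESC at 8, 7 and 4 loci. Of the 19140 windows of 100 kb with an island of either list, 45.9% were covered more in ESC. That share belongs to covered bases with 50 kb on either side. None was computed for the other sizes or for summed width, so those counts have no background. Width was the larger part at Zfp42, where the log2 of summed widths was -4.09 and that of reads per kb -0.25. At Nanog the 2 parts were -2.69 and -1.37, at Sox2 -2.29 and -1.50, and at Sall4 -1.47 and -1.03. At Pou5f1 and Klf4 width was nearly even (0.06 and -0.09), and reads per kb made up the difference (-0.93 and -1.21). The part from reads per kb is not special to the loci. Over the whole lists the median island held 5.20 RPM per kb in ESC and 3.14 in NPC. Without scaling to island reads, each log2 of reads per kb is higher by 0.44. The split into 2 parts has no background from windows.

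Reads per kb were higher in ESC islands than in NPC islands at most loci, as over the genome. Without scaling, the median island was denser in ESC at 8 of the 9 loci with both, all but Zfp42, against 76.5% of windows. The 55 ESC islands ranged from 63.2 to 222 reads per kb with a median of 104, beside 93.3 for the whole list, and 37 of them (67.3%) were denser than the list median, which by definition parts the list evenly. Only 3 (5.45%) were among the densest 10% of the list: 2 at Nanog and the island over Sox2. The 41 NPC islands ranged from 58.4 to 99.7 with a median of 77.3, beside 76.6 for their list, and 22 (53.7%) were denser than its median. NPC islands at the loci were thus of ordinary density for their list.

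**Figure D4:**
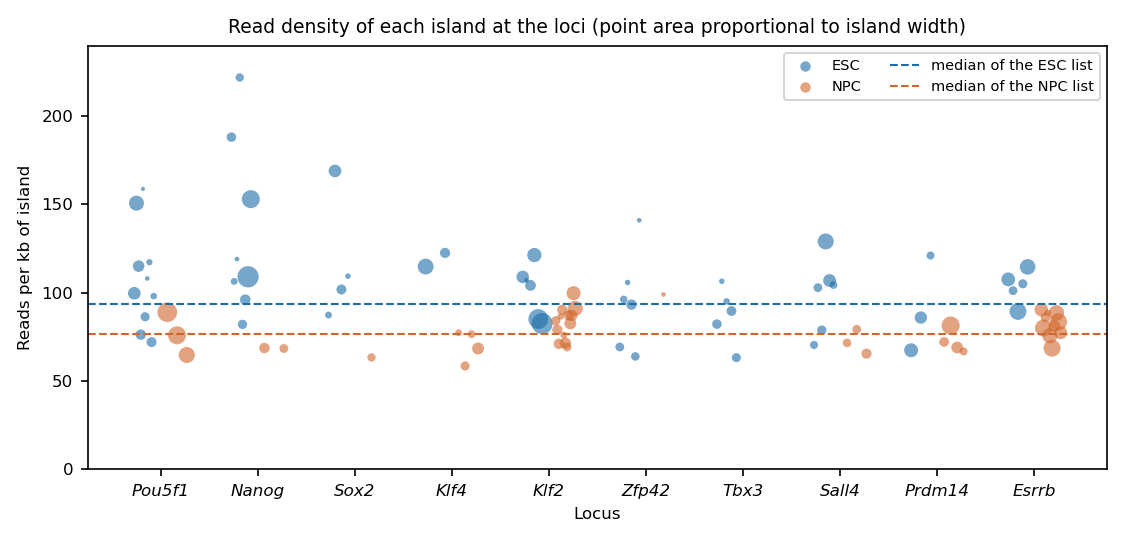
Reads per kb of each island (y axis) by locus (x axis), ESC in blue and NPC in orange, with point area proportional to island width and dashed lines at the median of each list (93.3 and 76.6). The highest points are ESC islands at Nanog (222 reads per kb) and Sox2 (169).

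In the 15 regions of the loci called in both cell types, 12 had a log2 of RPM below 0 (77.9% of all 14478 such regions), with a median of -0.69 beside -0.49. By reads per kb, scaled, all 15 were below 0, as were 98.3% of all regions, with a median of -0.87 beside -0.51. The lowest, -1.25, was the region over Klf2, and the next -1.12 and -1.11 at Sox2 and Nanog. The highest, -0.24, lay toward Eps15l1 at Klf2. Shared regions at the loci were thus mostly lower in NPC at about the share found over the genome.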

How the data were processed

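Islands were called with SICER 1.1 on mm9, as the submitters' processing notes name that tool and build beside Bowtie 0.12.7 (a read aligner), CASAVA 1.8.2, bedtools 2.10.1 and SAMtools 0.1.7. Names of the deposited lists give 200 bp windows, 600 bp gaps and an FDR of 0.01. They hold island coordinates and whole numbers, which were read as read counts per island, deposited without scaling. Read filters and the use of the 2 input libraries are not given in the sources used here. Coordinates were changed to count from 1.

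The 10 loci, the gene and motif lists and the settings were chosen with earlier results of these data known. At each locus the island over or nearest the position and the one with most reads were named, with neighbouring protein-coding genes by order in RefSeq (GRCm38.p6). Whole islands were counted. Values are counts, RPM, reads per kb and log2 NPC over ESC with exact intervals; no ratio was formed without islands in both lists. Windows of 100 kb end to end up to the last island of each chromosome gave the background (26404 windows). Other pluripotency genes were not run, since no mm9 annotation was used. Alternatives covered window, read and width minimums, overlap, gaps and scaling. Counts of islands and covered bases at the loci equalled those of bedtools 2.31.1, and the ratios were tested on simulated data. Python 3.11.15, numpy 2.4.6, pandas 2.3.3, scipy 1.17.1 and matplotlib 3.10.9 were used.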

Additional observations from a re-analysis of the deposited data

How the results depend on the processing

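With 1 library per cell type leaving out a library was not an option. No paired analysis was possible because each group has 1 library and no result comes from a test. Of the recomputed counts and summed ratios, 63 stayed close to the reported value and 20 did not. Closeness of a count was judged loosely, by its ratio to the reported count. A fall from 6 to 4 loci with more bases covered in ESC, with windows of 100 kb, was thus among the 63. Of the values of single loci, 23 stayed within their interval, 40 moved outside it and 2 reversed. What moved the values that left their interval was not tested. Many of the 23 were fixed by the setting and are no check. Changing the window left Esrrb at 0.37, and widening its span left every other locus as it was. Sox2, Zfp42, Sall4 and Esrrb had no island across the edge. Cutting reads there left them at -3.78, -4.34, -2.51 and 0.37. The 63 likewise include counts that a setting left untouched, such as the 7 loci with overlap under the wider Esrrb span. Library depth outside islands is unknown and limits the reading of stretches without an island.

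With windows of 10 kb on either side, NPC islands were found at 3 loci, Klf2, Zfp42 and Esrrb, all 3 with overlap. Changing the window left the Esrrb span of 170 kb as it was. At 10 kb, 0 loci had both apart, 6 had ESC islands only, and 2 of the 3 loci with a ratio had a log2 below 0. ESC-only loci numbered 2 with 25 kb and 0 with 100 kb, where 1 locus had both apart. They numbered 2 for islands of at least 100 reads and 3 for islands of at least the median reads, which left 4 loci with overlap. Within 2 kb of the position 1 locus had an NPC island. Shares over genome windows were not computed for any of these settings, so the counts have no background.

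The log2 over all loci together was -1.08 (-1.11 to -1.06). It was -1.32, -1.25 and -0.76 with windows of 10, 25 and 100 kb, which left the Esrrb span unchanged. The same log2 was -0.93 with the wider Esrrb span, -0.67 scaled by reads in shared regions and -0.64 unscaled. By reads per kb it was -0.87, and with reads cut at the window edge -1.04. Scaling by shared regions moved each log2 up by 0.41 and no scaling by 0.44. Direction reversed for Klf2 without scaling (0.020) and for Esrrb by reads per kb (-0.79). Prdm14, whose reported interval holds 0, was at -0.08 with 25 kb, -0.23 with reads cut at the edge and -0.57 by reads per kb.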
